A study of Mus musculus with 2 samples.

Results

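The tubulin isotypes are 10 genes of the mouse, 4 for alpha tubulin (Tuba1a, Tuba1b, Tuba1c and Tuba4a) and 6 for beta tubulin (Tubb2a, Tubb2b, Tubb3, Tubb4b, Tubb5 and Tubb6). They were taken by gene identifier from the 43346 gene rows measured in every library, and all 10 were found. The study measured RNA of mouse skeletal muscle at postnatal day 0 in 2 libraries, called replicate 1 and replicate 2. The labels give them as biological replicates 1 and 2. Both are of the B6NCrl strain, with no treatment or mutation in the labels, and the sex was not recorded. Each library started from 13 pg of total RNA, given as 1 cell-equivalent, and was made with SmartSeq, a method that copies whole transcripts into cDNA and amplifies it. Each RNA came from part of the tissue of 1 pup, and the biosamples are separate but point to the same donor entry. It is not clear whether that entry stands for 1 pup or for the strain. The spread between the libraries may be partly technical, and its technical part cannot be told apart. There is 1 group and no contrast between conditions, so no p-value is given, and SDs are over n = 2.

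Microtubules are hollow filaments built from dimers of alpha and beta tubulin. Mammals carry several genes for each subunit, and the proteins differ mostly in their C-terminal tails, where enzymes add and remove amino acids. In muscle fibres, microtubules form a network around the nuclei and beneath the membrane. Tuba1a is a main alpha isotype of developing tissue, and Tuba1b and Tuba1c are widely expressed. Tuba4a is an alpha isotype whose gene does not encode the C-terminal tyrosine. Tubb5 and Tubb4b are widely expressed beta isotypes, Tubb2a, Tubb2b and Tubb3 are best known from neurons, and Tubb6 is known for its high level in growing and regenerating muscle.

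Several of these genes are close copies, so reads can be hard to assign to one of them. The first 60 coding bases of 3 beta genes are shown to let the neighbouring genes Tubb2a and Tubb2b be read beside Tubb5. They are from GENCODE M21 transcripts on GRCm38, read 5′ to 3′ on the strand of the gene. Capitals mark bases that differ from Tubb5.
Tubb5 (chr17:35833921-35838306, minus strand): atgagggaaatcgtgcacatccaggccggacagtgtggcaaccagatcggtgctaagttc
Tubb2a (chr13:34074274-34078007, minus strand): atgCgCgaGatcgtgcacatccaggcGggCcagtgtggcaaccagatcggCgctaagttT
Tubb2b (chr13:34126748-34130466, minus strand): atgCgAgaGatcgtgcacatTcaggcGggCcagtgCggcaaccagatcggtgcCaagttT

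In this stretch Tubb2a differed from Tubb5 at 7 bases and Tubb2b at 9 bases, and Tubb2a and Tubb2b differed from each other at 5 bases. Over the whole coding sequence, Tuba1a was 98.3% identical to Tuba1b and 97.1% identical to Tuba1c. Tuba4a stood further off, at 84.7% identity to Tuba1a. Tubb2a and Tubb2b were 96.5% identical, with a longest shared run of 551 bases. Alpha and beta genes were 53.7% to 55.9% identical to each other. The close copies are also neighbours: 15271 bases separate Tuba1b and Tuba1a on chromosome 15, and 48740 bases separate Tubb2a and Tubb2b on chromosome 13.

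The coding sequences were cut into all overlapping windows of 100 bases. A window was called shared if a transcript of another of the 43346 genes held it. Genes outside these were left out. Among them was Gm49450, annotated as protein-coding, which overlaps Tuba1a and Tuba1b on the same strand. It held 34.4% of the coding windows of Tuba1a and 42.2% of those of Tuba1b. Of Tuba1b's windows 85.8% were shared, of Tuba1c's 80.4% and of Tuba1a's 66.7%. Tubb2a and Tubb2b each had 43.8% shared and Tubb4b 35.3%. Tuba4a, Tubb3, Tubb5 and Tubb6 had 0 shared windows. The deposited counts divide reads between such genes by estimation and give a posterior SD, a measure of the uncertainty of that division. It was 0.154% and 0.228% of the count for Tuba1a in replicates 1 and 2, and 0.396% and 0.369% for Tuba1b. It was 1.72% and 1.41% for Tuba1c, and largest for Tubb2b, at 4.73% and 2.27%. The division of reads was thus estimated more tightly than the libraries differed for these genes. It rests on the authors' model, and no independent count was made.

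**Figure D1:**
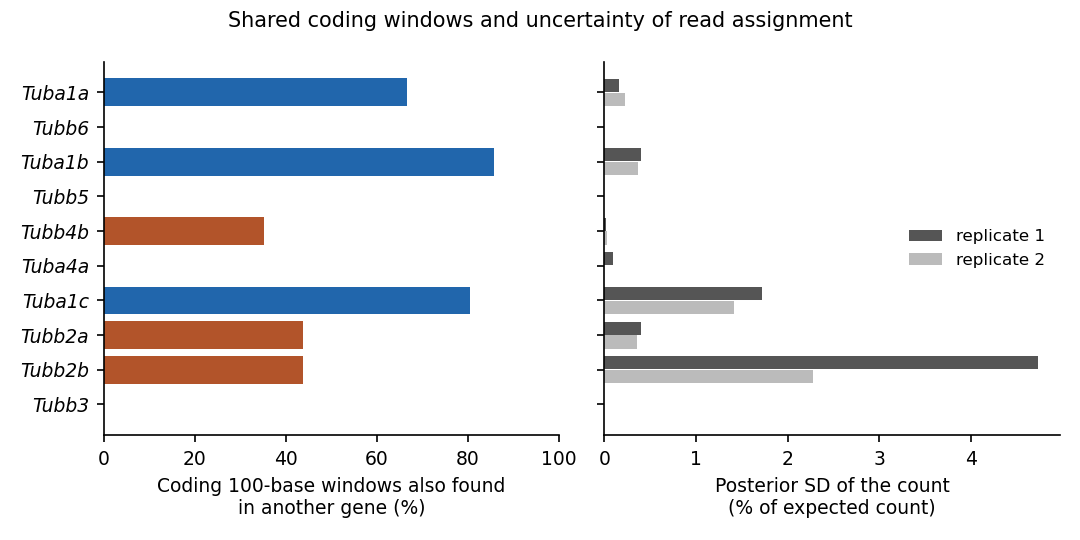
Left, share of each gene's 100-base coding windows that also occur in another of the 43346 genes (percent, blue alpha and orange beta). Right, posterior SD of the expected count as a percentage of that count in replicates 1 and 2. Tuba1b has the largest shared part, 85.8%, and Tubb2b the largest posterior SD, 4.73% in replicate 1.

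Processed pseudogenes, intronless copies that can take reads from their parents, also held some of these windows. Apart from the isotypes themselves, 9 of the 43346 genes shared a window with a tubulin isotype. All 9 were pseudogenes, and 6 of them had at least 5 counts in a library. The highest was Gm14150, a copy of the Tuba1 genes, with 183.1 counts in replicate 1 and 177.0 in replicate 2. Gm17383 had 49.7 and 21.5, Gm5620 had 16.1 and 10.8, Gm15599 had 17.4 and 2.0, and Tubb4b-ps1, a copy of Tubb4b, had 8.7 and 4.0. Together the 9 held 286 and 223 counts, or 0.187% and 0.169% of the counts on the isotypes.

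Levels are given in TPM, a share of all transcripts that is adjusted for length and so can be compared between genes. Of the 10 isotypes, 9 were detected in both libraries, with at least 1 TPM and 5 counts in each. The same held for 18.2% of protein-coding genes and for 4356 of the 43346 genes. The isotypes held 152976 of 32103374 expected counts in replicate 1 and 131488 of 38977618 in replicate 2. Their summed level was 3745 and 2597 TPM, which is 0.375% and 0.260% of all TPM (mean 0.317% ± 0.0812). All TPM includes the added spike-in RNAs, which held 9.44% in replicate 1 and 4.54% in replicate 2. Without spike-ins the isotypes' share was 0.414% and 0.272%.

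Among the alpha genes, Tuba1a had 1531 TPM in replicate 1 and 841 TPM in replicate 2 (1186 ± 488). It was the highest isotype in both libraries, and stood at rank 67 and rank 151 among all genes. Tuba1b had 595 and 551 TPM (573 ± 31.1), at ranks 220 and 262. The ratio of replicate 1 to replicate 2 in TPM was 1.08. Tuba1c had 78.0 and 97.8 TPM (87.9 ± 14.0). Tuba4a had 52.8 and 217 TPM (135 ± 116), with replicate 2 at 4.12 times replicate 1, the widest ratio among the isotypes in TPM but not in counts.

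Among the beta genes, Tubb6 had 815 TPM in replicate 1 and 393 TPM in replicate 2 (604 ± 298), at ranks 158 and 372. It was the highest beta gene in both libraries. Tubb5 had 298 and 208 TPM (253 ± 63.9). Tubb4b had 311 and 159 TPM (235 ± 107). Tubb5 and Tubb4b changed places between the libraries in TPM but not in expected counts. Tubb5 had 18472 and 14322 counts, and Tubb4b 11377 and 7465.

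Of the beta isotypes best known from neurons, Tubb2a had 59.4 and 115 TPM (87.1 ± 39.1). Tubb2b had 4.07 and 14.7 TPM (9.37 ± 7.49). Tubb3 was near the limit of the data in both libraries. It had 12 counts in replicate 1 (exact 95% Poisson interval 6.20 to 21.0) and 8 in replicate 2 (3.45 to 15.8), or 0.280 and 0.140 TPM. These intervals cover counting error only and overlap.

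**Figure D2:**
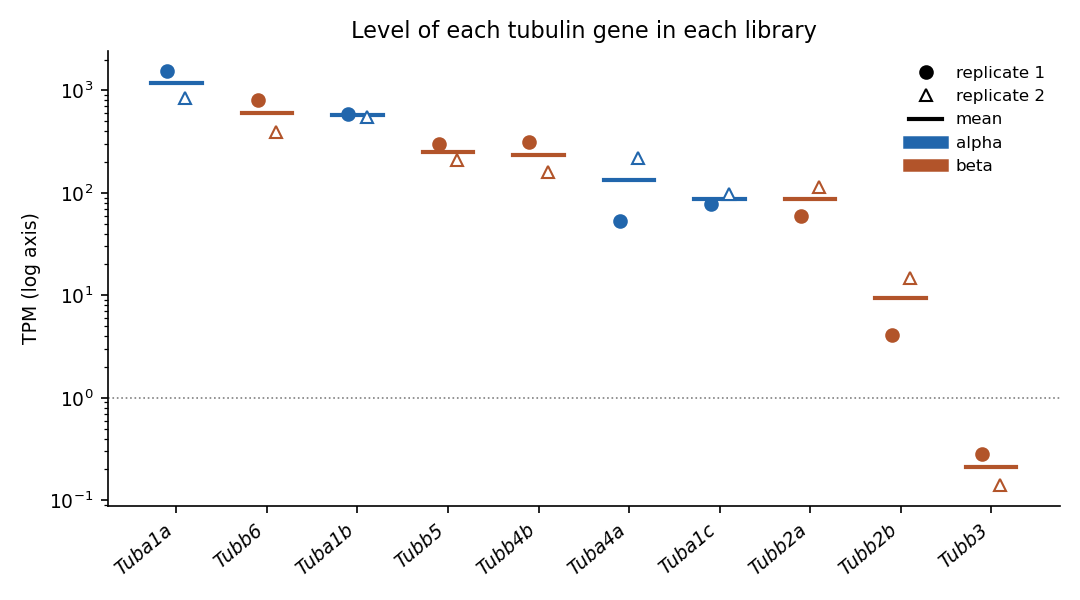
TPM of each tubulin gene (log axis) in replicate 1 (filled circles) and replicate 2 (open triangles), ordered by mean (bars), with alpha genes in blue and beta genes in orange; the dotted line is at 1 TPM. Tuba1a is highest in both libraries, and Tubb3 is the only gene below the line, at 0.280 and 0.140 TPM.

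By mean TPM the order was Tuba1a, Tubb6, Tuba1b, Tubb5, Tubb4b, Tuba4a, Tuba1c, Tubb2a, Tubb2b and Tubb3. Neighbours were set apart where their log2 ratio had the same sign in both libraries and a mean beyond 2 SD, which is a description and not a test at n = 2. This held for 4 of the 9 neighbouring pairs. Tuba1a exceeded Tubb6 by 1.00 ± 0.13 on the log2(TPM + 1) scale, and Tuba1b exceeded Tubb5 by 1.20 ± 0.29. Tubb2a exceeded Tubb2b by 3.23 ± 0.49, and Tubb2b exceeded Tubb3 by 2.88 ± 1.27. Tubb3 was below 1 TPM, so the size of its ratios depends on the 1 added to TPM. Tubb6 and Tuba1b did not separate (-0.02 ± 0.66), nor did Tubb5 and Tubb4b (0.16 ± 0.31). The same was true of Tubb4b and Tuba4a (1.05 ± 2.11), Tuba4a and Tuba1c (0.29 ± 1.20), and Tuba1c and Tubb2a (0.08 ± 0.44).

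Of all 45 pairs, 38 had the same order in both libraries and 30 passed 2 SD. Beta genes kept their order among themselves in 14 of 15 pairs, and alpha genes in 5 of 6. The ratio of Tubb6 to Tubb4b hardly moved, at 1.39 in replicate 1 and 1.30 in replicate 2 on the log2 scale. The ratio of Tuba1a to Tubb4b was as steady, at 2.30 and 2.39. These SDs, 0.06 and 0.07, were among the smallest of the 45 pairs. The SDs ran from 0.04 (Tuba1b over Tubb3) to 2.17 (Tubb6 over Tuba4a). Among 45 pairs at n = 2 some SDs are small in any case, so these values do not show a fixed ratio. Tuba1a over Tuba1b was positive in both libraries, at 1.36 and 0.61, but its mean of 0.98 ± 0.53 did not pass 2 SD.

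Within the alpha family, Tuba1a made up 67.8% of the summed TPM in replicate 1 and 49.3% in replicate 2 (58.5% ± 13.1). Tuba1b followed with 26.4% and 32.3% (29.3% ± 4.18). Both together gave 94.2% and 81.5% of alpha. Tuba4a held 2.34% and 12.7%, and Tuba1c 3.46% and 5.73%. Replicate 2 thus had a smaller part from Tuba1a and a larger part from each of the other alpha genes.

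Within the beta family, Tubb6 made up 54.8% in replicate 1 and 44.2% in replicate 2 (49.5% ± 7.49). Tubb5 held 20.0% and 23.3% (21.7% ± 2.34), and Tubb4b 20.9% and 17.9% (19.4% ± 2.11). These 3 genes together gave 95.7% and 85.4% of beta. Tubb2a held 3.99% and 12.9%, Tubb2b 0.273% and 1.65%, and Tubb3 0.0188% and 0.0157%. As for alpha, the leading gene's part was smaller in replicate 2.

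**Figure D3:**
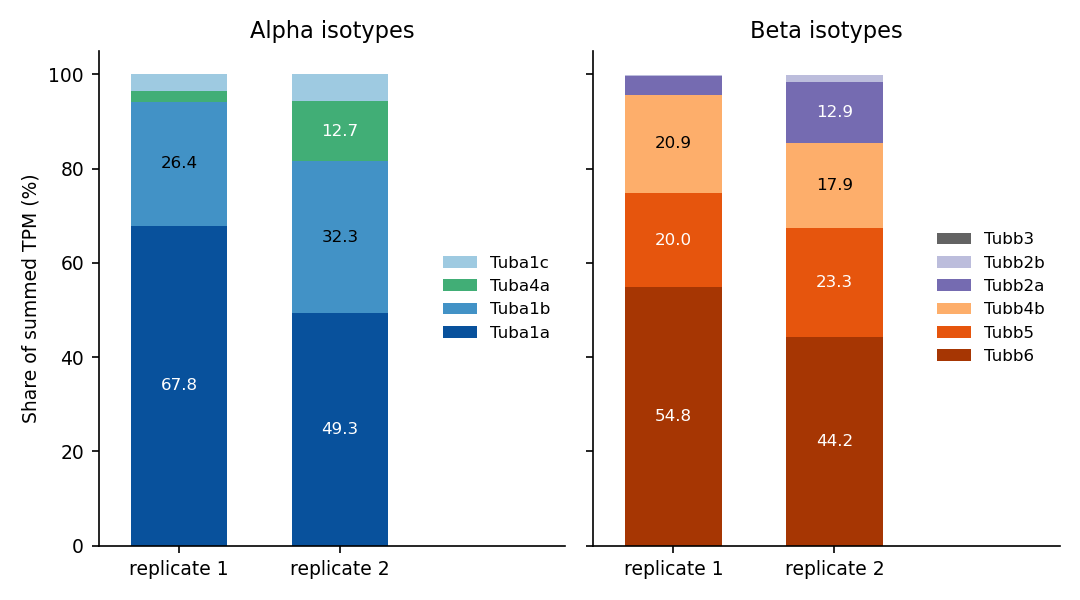
Share of the summed TPM (percent) of each alpha gene (left) and beta gene (right) in replicates 1 and 2. Tuba1a leads alpha with 67.8% and 49.3%, and Tubb6 leads beta with 54.8% and 44.2%.

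Summed alpha exceeded summed beta in both libraries. Alpha summed to 2257 TPM in replicate 1 and 1708 in replicate 2, and beta to 1488 and 889.9. The ratio of alpha to beta was 1.52 and 1.92 (1.72 ± 0.284), and its log2 was 0.60 and 0.94 (0.77 ± 0.24), beyond 2 SD. These are RNA levels, and protein was not measured.

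The libraries were compared by the difference in log2(TPM + 1), replicate 1 minus replicate 2, with the median gene set to 0. With 1 library on each side there is no test, and a difference over 1 in size is only a measure of extent. Of the 10 isotypes, 4 passed it, against 67.7% of the 9370 genes with a mean of at least 10 counts. Upward and downward it was 2 isotypes each, against 33.0% and 34.8% of genes. Tubb6 (1.18) and Tubb4b (1.09) were higher in replicate 1, and Tuba4a (-1.89) and Tubb2b (-1.50) were higher in replicate 2, but with the 35 spike-in RNAs of such depth set to 0 Tubb6 (-0.23) and Tubb4b (-0.32) turned negative. The other differences were 0.99 for Tuba1a, 0.65 for Tubb5, 0.30 for Tubb3, 0.24 for Tuba1b, -0.19 for Tuba1c and -0.81 for Tubb2a. With 0.1 added to TPM in place of 1, that of Tubb3 was 0.81.

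The spike-ins moved the zero point by 1.41, and then all 10 isotypes were below 0, with 0 past the threshold upward and 6 downward. With the 25 spike-ins that had at least 10 counts in both libraries, a choice made after the first value was seen, the zero point moved by 1.11. On that scale 9 isotypes were below 0, 4 passed downward, and Tubb6 stood at 0.07. Of all genes past the threshold, 48.7% were higher in replicate 1 with the median gene at 0, against 25.9% and 29.4% on the 2 spike-in scales. Tuba1c, Tuba4a, Tubb2a and Tubb2b were below 0 on all these scales, whereas the sign of the other 6 isotypes depended on the zero point.

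The SD of the differences was 1.09 over the isotypes and 3.19 over all 9370 genes. Depth differs between the sets, so they were also compared within ranges of mean count. At 10000 counts or more, 1 of 4 isotypes (Tubb6) passed the threshold, against 21.4% of 454 genes. It was the 1 of 4 higher in replicate 1 (13.0% of genes), and 0 of 4 were higher in replicate 2 (8.37% of genes). At 1000 to 10000 counts, 2 of 4 isotypes (Tubb4b and Tuba4a) passed, against 64.7% of 4403 genes. In that range 1 of 4 was higher in replicate 1 (33.6% of genes) and 1 of 4 in replicate 2 (31.0% of genes). The median size of the difference was 0.82 for the 4 isotypes at 10000 counts or more, above the 0.52 of all genes there. At 1000 to 10000 counts it was 0.95 for the 4 isotypes and 1.68 for all genes. A range holds only 4 isotypes, and no test was made.

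**Figure D4:**
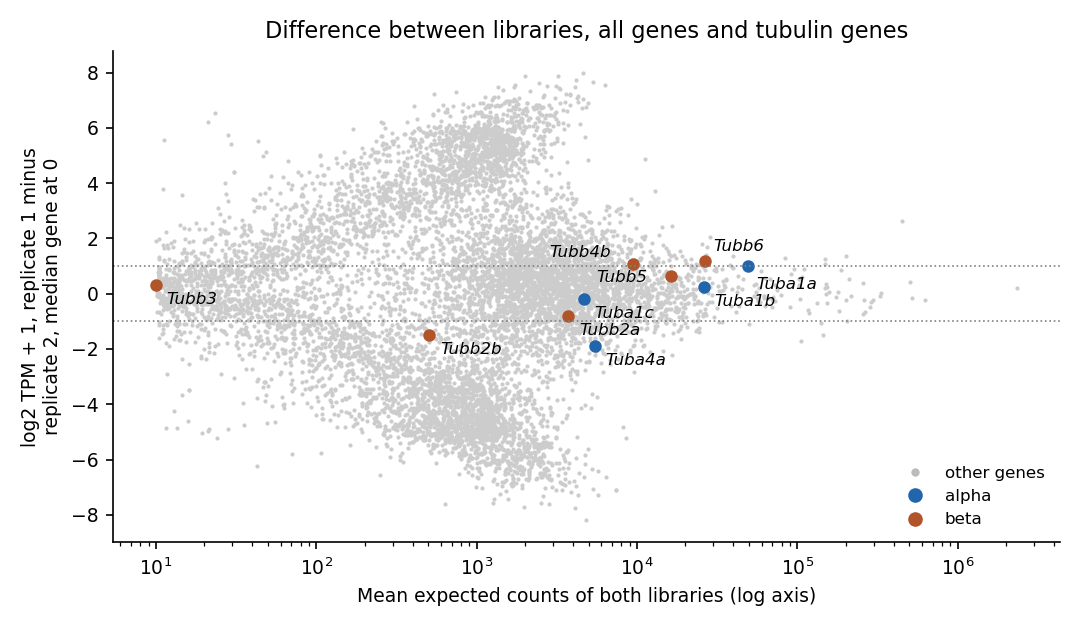
Difference between libraries in log2(TPM + 1), replicate 1 minus replicate 2 with the median gene at 0, against mean expected counts (log axis) for 9370 genes (grey) and the tubulin genes (blue alpha, orange beta); dotted lines mark a size of 1. The tubulin genes lie between -1.89 and 1.18, while the SD over all genes is 3.19.

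Markers of other cell types also had different levels in the libraries, and so did most genes. Of the 9370 genes with a mean of at least 10 counts, 67.7% passed a difference over 1 in size. The markers' part in the isotype differences was not tested. In bulk RNA, fewer cells of a type and less RNA per cell cannot be told apart. Detection of markers in both libraries is to be read against 18.2% of protein-coding genes, and 0 counts in both against 54.2%. All 10 muscle fibre markers were detected in both libraries, with summed levels of 143312 TPM in replicate 1 and 160106 in replicate 2. All 7 fibroblast markers were detected in both, at 6305 and 3950 TPM, but single markers went either way: Col1a1 had 1829 and 784 TPM and Lum 104 and 216. Of 6 endothelial markers 3 were detected in both and Vwf was at 0. Their sums of 234 and 15.3 TPM came mostly from Pecam1 in replicate 1 (182 and 0.06 TPM), while Flt1 had 1.35 and 6.39. Of 10 neuronal markers 1 was detected in both, with sums of 108 and 33.0 TPM, mostly from Gap43 (87.8 and 32.9 TPM), and Nefl and Chat were at 0. Of 10 cell cycle genes 4 were detected in both, at 298 and 489 TPM, with Aurka at 0. Of the 9 with a mean of at least 10 counts, 7 were higher in replicate 2 by over 1 (34.8% of genes). The other 2 were higher in replicate 1 by over 1 (33.0% of genes), all with the median gene at 0. Cdk1 had 100 and 254 TPM, and Top2a, which went the other way, 93.5 and 19.9 TPM.

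Tuba4a and Tubb5 were the genes whose transcripts differed between the libraries. In replicate 1, Tuba4a-201 (2083 bases) gave 89.56% of the gene's TPM, from 2287 counts. In replicate 2 it gave 23.54%, from 3174 counts. Tuba4a-206, a form of 1205 bases with 2 exons, had 0 counts in replicate 1 and 3987 in replicate 2, where it gave 53.05%. Tuba4a-204, of 845 bases, had 0 and 720 counts. The mean transcript length of Tuba4a was 2054 bases in replicate 1 and 1339 in replicate 2. TPM divides by this length, so replicate 2 was 4.12 times replicate 1 in TPM but 2.76 times in counts scaled to the library total. In such counts Tubb2b was wider, with replicate 2 at 3.80 times replicate 1.

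Tuba4a also overlaps Stk16, a kinase gene on the opposite strand, over 1379 bases. Stk16 had 2774 counts in replicate 1 and 280 in replicate 2, the reverse of Tuba4a's order. Whether the counting used strand is not given in the sources used here, so reads of the overlap could belong to either gene. Tubb3 lies within Gm20388, a gene on the same strand (43 and 7 counts), so its few reads could also belong to either gene.

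For Tubb5, Tubb5-201 gave 99.36% of the TPM in replicate 1 and 82.02% in replicate 2. Tubb5-203, annotated as a retained intron, gave 0.11% and 10.70%. Tubb5-202 gave 0.07% and 6.98%. In each of the other 8 isotypes, a single transcript had at least 5 counts in each library.

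**Figure D5:**
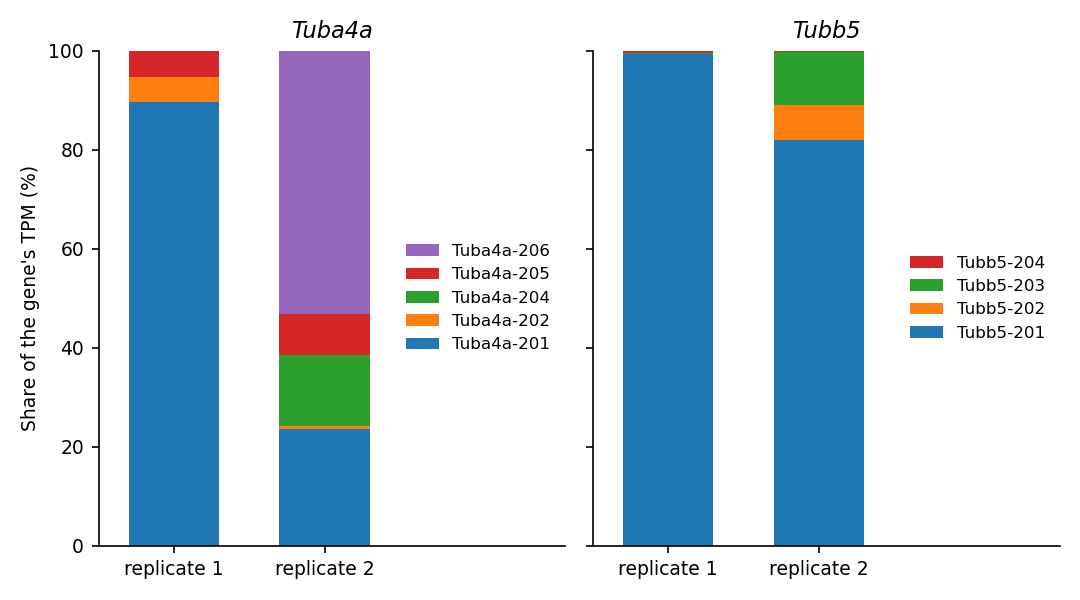
Share of the gene's TPM (percent) given by each transcript of Tuba4a (left) and Tubb5 (right) in replicates 1 and 2. Tuba4a-201 gives 89.56% in replicate 1 and 23.54% in replicate 2, where Tuba4a-206 gives 53.05%.

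Of the 10 other tubulin genes looked up, Tubg1, the gamma tubulin that nucleates microtubules, was detected in both libraries, with 46.6 and 72.5 TPM. Tubb4a, a beta isotype of brain, had 5 and 0 counts. Tuba3a, Tuba3b, Tuba8, Tubal3, Tubb1, Tubg2, Tubd1 and Tube1 had 0 counts in both. For Tuba8, an alpha isotype known from muscle and testis, 3 counts would have given 0.0578 TPM in replicate 1 and 0.0452 in replicate 2. These values cover counting only, and 0 counts do not show absence. Genes at far higher levels in 1 library had 0 TPM in the other, such as Dync1h1 (91.4 and 0 TPM) and Mzt1 (0 and 55.2 TPM). A count of 0 in both libraries was found for 54.2% of protein-coding genes.

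For the gene lists that follow, detection in both libraries is to be read against 18.2% of protein-coding genes, and 0 counts in both against 54.2%. New tubulin is folded by the CCT chaperonin, to which prefoldin delivers it, and is then joined into dimers by tubulin cofactors. All 8 CCT subunits were detected in both libraries, with sums of 1506 and 1403 TPM. Cct6a had 379 and 255 TPM, and Cct5 had 242 and 282. Of 6 prefoldin subunits 5 were detected in both, led by Pfdn5 (367 and 251 TPM) and Vbp1 (258 and 80.7 TPM). Of 8 cofactor genes 4 were detected in both, led by Arl2 (93.2 and 126 TPM) and Tbca (56.4 and 161 TPM), while Tbcd and Tbccd1 were at 0.

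Cells lower their tubulin RNA when free dimers are in excess, through Ttc5, which binds the first residues of nascent tubulin, and the CCR4-NOT complex. The 3 genes looked up were all detected in both libraries. Ttc5 had 101 and 57.1 TPM, Cnot11 34.4 and 7.56, and Cnot1 4.40 and 17.9.

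Of 22 genes for enzymes that modify the C-terminal tail and their partners, 4 were detected in both libraries, against 18.2% of protein-coding genes. There were 13 with 0 counts in both, against 54.2% of protein-coding genes, so both counts were near the background. These 13 were Vash1, Agbl1, Agbl2, Agbl4, Ttll3, Ttll4, Ttll5, Ttll6, Ttll8, Ttll9, Ttll10, Ttll11 and Ttll13. Svbp, the partner of the vasohibins, which remove the last tyrosine, had 91.6 and 76.6 TPM. The vasohibin Vash2 had 0 and 33.3 TPM. Ttll12 had 42.3 and 4.64 TPM, and Ttll1, part of a glutamylating enzyme, had 0.02 and 35.2 TPM. Of 3 acetylation genes 2 were detected in both: the deacetylase Sirt2 (92.5 and 90.8 TPM) and the acetyltransferase Atat1 (46.9 and 41.1 TPM).

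Among the proteins that act on microtubules, 5 of 16 nucleation and anchoring genes were detected in both libraries (18.2% of protein-coding genes), led by Pde4dip (111 and 205 TPM) and Mzt2 (20.0 and 63.0 TPM), with Nedd1 and Tubgcp6 at 0. Of 20 structural microtubule-associated proteins 8 were, led by Map1lc3b (238 and 92.0 TPM) and Map1lc3a (151 and 177 TPM), both also known for their role in autophagy, with Map7 and Mid1 at 0. Of 13 plus-end genes 8 were, led by Mapre1 (93.9 and 101 TPM) and Clip1 (6.90 and 71.5 TPM), with Slain1 at 0. Of 14 destabilizing or severing genes 4 were, led by Stmn1, which binds free dimers (106 and 294 TPM), and Katna1 (88.3 and 91.2 TPM), and Kif2b, Kif2c, Kif18a, Spast, Fign and Fignl1 were at 0. Of 18 motor genes 7 were, led by the dynein light chain Dynll1 (295 and 525 TPM) and the kinesin Kif5b (77.6 and 108 TPM), with Klc2 and Klc4 at 0.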

How the data were processed

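Expected counts, TPM and FPKM per gene, and for transcripts the percent of the gene's TPM (IsoPct), were deposited by the authors. The column names match RSEM output, per the file headers, and include posterior estimates. The build was mm10 and the annotation GENCODE M4, per the labels and the deposited descriptions. The aligner, and whether strand was used, is not given in the sources used here. TPM sums over all rows, spike-ins included.

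The members and gene lists were chosen with earlier results of these data known. All 10 isotypes are named; of each pathway list, the 2 to 4 highest genes by mean TPM and genes at 0 in both libraries, and of the pseudogenes the 5 highest by summed count. Differences used log2(TPM + 1) over genes with a mean of at least 10 counts, less the median gene. The calculation was tested on simulated data with planted changes and counting error only. That checks the arithmetic, and not calls under the spread between these libraries. Shared windows and coding identity used GENCODE M21 transcripts, whose untranslated ends differ from the authors' annotation for some genes. For Tuba4a the transcript Tuba4a-202 was used, since Tuba4a-201 has no annotated start codon there. Alternatives changed the unit, pseudocount, filter, threshold, zero point and libraries. Python 3.11.15, pandas 2.3.3, numpy 2.4.6 and edgeR 4.0.16 (for TMM factors only) were used. Library totals were 32103374 and 38977618 expected counts; reads carry no molecular identifiers, so intervals cover counting error only. Some sequences are not reported here.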

Additional observations from a re-analysis of the deposited data

How the results depend on the processing

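The isotypes' share of the library was 0.317% by TPM and 0.407% by expected counts, which do not adjust for length. The number of isotypes past the threshold between libraries was 4, and 0 with a size over 2; it ranged from 3 to 6 under the other alternatives. With spike-ins of a mean of at least 10 counts at 0, Tubb4b stood at -0.32 and Tubb6 at -0.23. With spike-ins of at least 10 counts in both libraries at 0, which was added after the first value had been seen, Tubb4b stood at -0.02. With 2 libraries, leaving out each in turn only returns the value of the other, so it is no separate check. The share was then 0.260% to 0.375%, and the alpha over beta log2 ratio 0.60 to 0.94. Tuba1a's share of alpha was 49.3% to 67.8% and Tubb6's share of beta 44.2% to 54.8%, with 9 detected isotypes each time. The 30 pairs beyond 2 SD stayed 30 with a pseudocount of 0.1, posterior mean TPM or FPKM. Posterior mean TPM and FPKM keep the ratios between genes of a library nearly unchanged, so they could hardly alter this count. Pairs were not compared in expected counts, in which Tubb5 exceeded Tubb4b in both libraries. Detected isotypes were 8 at 5 TPM and 10 at 0.1 TPM. No paired analysis was possible because there is 1 group.

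Read count alone did not make a level precise. Each library started from 13 pg of RNA, and the SD of the differences between libraries was 3.37 over genes with a mean of 1000 to 10000 counts and 0.86 over those with 10000 or more.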
